A study of Homo sapiens with 12 samples.

Results

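MT-TW is the mitochondrial gene of mt-tRNA Trp, and its 3' end was read in 6 MPAT-Seq libraries, in which it is 1 of 22 mt-tRNAs. It was chosen by values measured in these tables: its guanine discriminator base, the reads that stop at CCA, the percentage extended, the tail lengths and the bases added. All MPAT-Seq values below are therefore a description, with intervals for counting error and no test. Only its RNA-seq counts were not used in the choice.

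mt-tRNA Trp brings tryptophan to the mitochondrial ribosome, where it reads UGA as well as UGG. Like other tRNAs it leaves its precursor without the CCA end, which the nucleotidyltransferase TRNT1 adds after the discriminator base, the last base encoded by the gene. The amino acid is joined to the A of CCA, so an end that lacks this A, or carries bases after it, cannot be charged until it is mended. mtPAP is the poly(A) polymerase of human mitochondria, and PDE12 is a 3' exoribonuclease that removes adenines there.

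All cells were HEK293T, a line derived from human embryonic kidney, and expression of the inserted genes named below was turned on with doxycycline. PDE12+/+ cells carried the intact gene, and PDE12-/- cells were 1 single-cell clone with frameshifting indels made by zinc finger nucleases. Further libraries came from PDE12-/- cells expressing wild-type PDE12 (PDE12-/- + WT), PDE12-/- cells expressing the catalytic mutant E351A (PDE12-/- + E351A), and PDE12+/+ or PDE12-/- cells overexpressing mtPAP. MPAT-Seq joins an oligonucleotide to RNA 3' ends, amplifies from a primer inside each mt-tRNA and sequences the product, with 1 library per condition, while RNA-seq had 3 samples per genotype. For the 2 mtPAP libraries the genotype in the sample label and that in the name and first line of the deposited table are opposite. The table's genotype is used here, and every statement that sets PDE12+/+ + mtPAP against PDE12-/- + mtPAP, or either against a library without mtPAP, rests on that choice.

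In GRCh38 the gene occupies chrM:5512-5579 on the + strand, where MT-ND2 ends at the base before it. The next gene on the map, MT-TA, starts 8 bases after its end and lies on the − strand. The first line below is the whole gene, with the discriminator base in capitals. The second is the primer of the assay, which starts at the second base of the gene. The third is the genome between MT-TW and MT-TA, which a precursor would carry in place of CCA. The fourth is the most frequent base at each position from the discriminator base on in the PDE12-/- + mtPAP library, with CCA in capitals, and it read the same in all 6 libraries.
MT-TW gene: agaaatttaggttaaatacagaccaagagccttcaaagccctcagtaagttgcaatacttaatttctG
primer: gaaatttaggttaaatacagaccaag
chrM:5580-5586: taacagc
most frequent 3' end: gCCAaaaaaaaa

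Positions are counted from the discriminator base, so that +1 to +3 are CCA and +4 is the first base beyond it. Reads of MT-TW at the discriminator base numbered 5727 in PDE12+/+, 1746 in PDE12-/-, 6346 in PDE12-/- + WT, 16934 in PDE12-/- + E351A, 950 in PDE12+/+ + mtPAP and 3114 in PDE12-/- + mtPAP. At +3 the library totals over the 22 mt-tRNAs ranged from 264522 to 758684 reads, of which MT-TW held 0.345% to 2.18%. Its depth ranked between 12 and 16 of the 22, and the amplicons were pooled, so these shares are not abundances. No molecular identifiers were used, and the intervals below cover counting error only. The paper cautions that reverse transcriptase has to pass modified bases, so the assay might over-represent extension of unmodified molecules. The percentages below are therefore shares of reads, and may differ from shares of molecules.

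Extension beyond CCA was seen in all 6 libraries and spanned nearly the whole range from rare to usual. Of the reads at +3, 8.51% went on to +4 in PDE12+/+ (95% Wilson interval 7.80 to 9.28). In PDE12-/- it was 15.6% (13.9 to 17.4). With wild-type PDE12 it was 3.12% (2.69 to 3.61), the lowest of the 6, and with E351A 45.2% (44.5 to 46.0). With mtPAP it was 17.7% (15.4 to 20.4) in PDE12+/+ and 87.8% (86.5 to 89.1) in PDE12-/-, the highest. In order from lowest to highest the libraries were PDE12-/- + WT, PDE12+/+, PDE12-/-, PDE12+/+ + mtPAP, PDE12-/- + E351A and PDE12-/- + mtPAP, and among neighbours in this order only the intervals of PDE12-/- and PDE12+/+ + mtPAP overlapped.

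**Figure D1:**
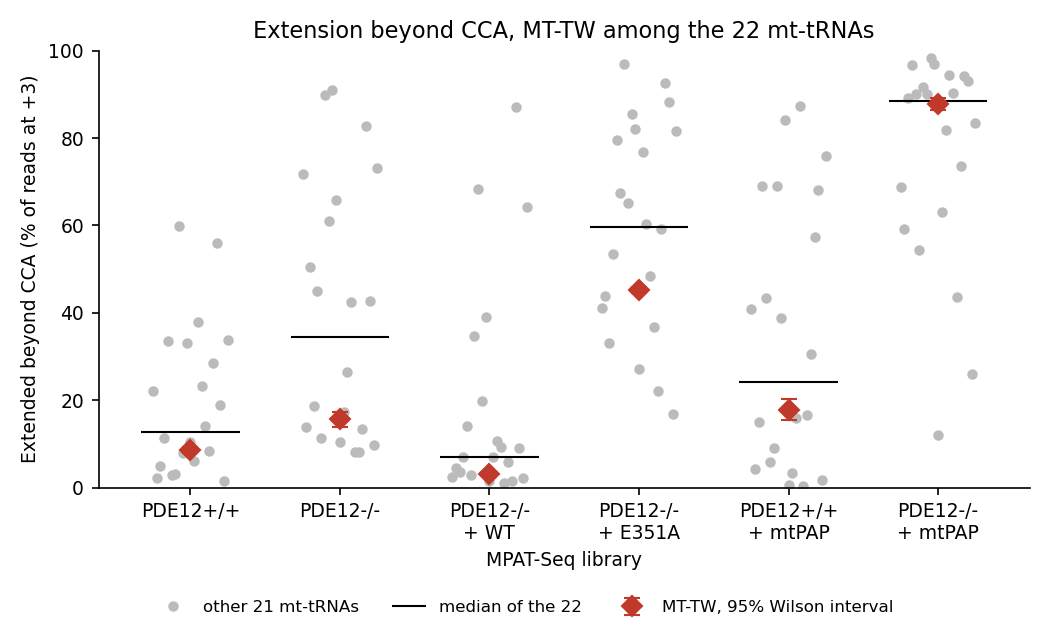
Percentage of reads at +3 that were extended to +4 (y axis) in each MPAT-Seq library (x axis). Red diamonds are MT-TW with 95% Wilson intervals, grey points the other 21 mt-tRNAs and black lines the median of the 22. MT-TW lies below the median in all 6 libraries, and comes within 1 point of it in PDE12-/- + mtPAP (87.8% against 88.5%).

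MT-TW lay below the median of the 22 mt-tRNAs in each library. Those medians were 12.8% in PDE12+/+, 34.5% in PDE12-/-, 6.98% in the wild-type PDE12 library, 59.7% in the E351A library, 24.2% in PDE12+/+ + mtPAP and 88.5% in PDE12-/- + mtPAP. Counted from the most extended, MT-TW ranked 14, 15, 16, 15, 12 and 12 in the same order of libraries. Its place among the 22 thus moved little, while its percentage ran from 3.12 to 87.8.

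MT-TW was somewhat more extended without PDE12 than with it. The percentage was 7.07 points higher in PDE12-/- than in PDE12+/+ (95% Newcombe interval 5.25 to 9.02), 1.83 times the level. This was smaller than the median difference of the 22, 11.5 points, and ranked 16 among them. MT-TH, the gene of mt-tRNA His, had the largest, 86.8 points, and MT-TS1 (mt-tRNA Ser) the lowest, −14.9. The MT-TS1 value rests on 5 of 37 reads in PDE12-/- against 48 of 169 in PDE12+/+, whose intervals overlap. Intervals apart with PDE12-/- higher were found for 16 of the 22 (72.7%), so MT-TW shared its direction with most. When only reads with A at +4 were counted, its difference was 4.08 points (2.47 to 5.82): C stood there in 70 of the 261 extended reads of PDE12-/- and in 60 of the 467 of PDE12+/+.

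With wild-type PDE12 expressed in PDE12-/- cells, extension of MT-TW was lower than in PDE12-/- (difference −12.5 points, interval −14.3 to −10.7), 0.200 times the level. The median difference of the 22 was close to it, −12.0 points, and 18 of the 22 (81.8%) were lower with intervals apart. MT-TW also lay below PDE12+/+ in this library (difference −5.39 points, interval −6.27 to −4.52), which 11 of the 22 did (50.0%). That last difference was −3.48 points when +5 was read in place of +4, and −3.32 points when reads with C at +3 were taken out and as many of them as possible were counted as extended.

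With the catalytic mutant E351A, MT-TW was 29.7 points above PDE12-/- without it (27.7 to 31.5), 2.90 times the level. It ranked 9 of the 22 in this difference, whose median was 16.5 points, and 18 of the 22 (81.8%) were higher with intervals apart; MT-TM (mt-tRNA Met) had the largest, 59.4 points, and MT-TA (mt-tRNA Ala) the lowest, −30.7. Against the library with wild-type PDE12, the E351A library was 42.1 points higher (41.2 to 43.0), 14.5 times the level. The median of the 22 was 40.8 points in that pair, and 21 of the 22 (95.5%) were higher with intervals apart.

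Overexpressed mtPAP went with somewhat more extension of MT-TW in PDE12+/+ cells and with much more in PDE12-/- cells. In PDE12+/+ the difference was 9.24 points (6.77 to 11.9), 2.09 times the level, against a median of 8.72 for the 22, of which 15 (68.2%) were higher with intervals apart. In PDE12-/- it was 72.3 points (69.99 to 74.3), 5.64 times the level. MT-TW ranked 3 of the 22 there, behind MT-TQ (mt-tRNA Gln, 82.2 points) and MT-TE (mt-tRNA Glu), while the median was 40.9 points and 20 of the 22 (90.9%) were higher with intervals apart. MT-TQ had only 62 reads at +3 in PDE12-/- + mtPAP and 172 in PDE12-/-. Between the mtPAP libraries PDE12-/- was 70.1 points higher (67.2 to 72.8), 4.95 times the level, ranking 4 of the 22, of which 21 (95.5%) were higher with intervals apart. If the genotypes in the labels are taken instead, this difference is −70.1 points, that within PDE12+/+ is 79.3 points, and that within PDE12-/- is 2.16 points with an interval that includes 0 (−0.80 to 5.26).

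The reads that ended before CCA was complete gave a different order of libraries. Such ends made up 4.16% of the reads at the discriminator base in PDE12+/+, 4.07% in PDE12-/-, 2.41% with E351A and 3.89% in PDE12+/+ + mtPAP. They made up 14.6% with wild-type PDE12 (13.7 to 15.5) and 23.9% in PDE12-/- + mtPAP (22.4 to 25.4). The libraries with the least and with the most extension beyond CCA were thus those with the most ends short of CCA.

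In the 2 libraries with the most short ends, the greater part of them stopped after the second C, lacking only the A. After the second C ended 10.2% of the reads with wild-type PDE12 and 22.5% in PDE12-/- + mtPAP, but 2.85% in PDE12+/+, 0.573% in PDE12-/-, 1.20% with E351A and 3.58% in PDE12+/+ + mtPAP. In PDE12-/- more reads stopped after the first C, 46 of 1746 (2.63%), than after the second, 10 (0.573%). Among the reads that reached the second C, the share that stopped there was 22.9% in PDE12-/- + mtPAP (21.4 to 24.4), and MT-TW ranked 2 of the 22 for it, after MT-TR (mt-tRNA Arg, 26.2%). With wild-type PDE12 the share was 10.6% but MT-TW ranked 17 of the 22, so many other mt-tRNAs stopped there more often. Ends at complete CCA were the most frequent kind in 5 libraries, between 53.4% with E351A and 87.7% in PDE12+/+, but made up 9.25% (8.28 to 10.3) in PDE12-/- + mtPAP, where 66.9% ran beyond CCA.

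**Figure D2:**
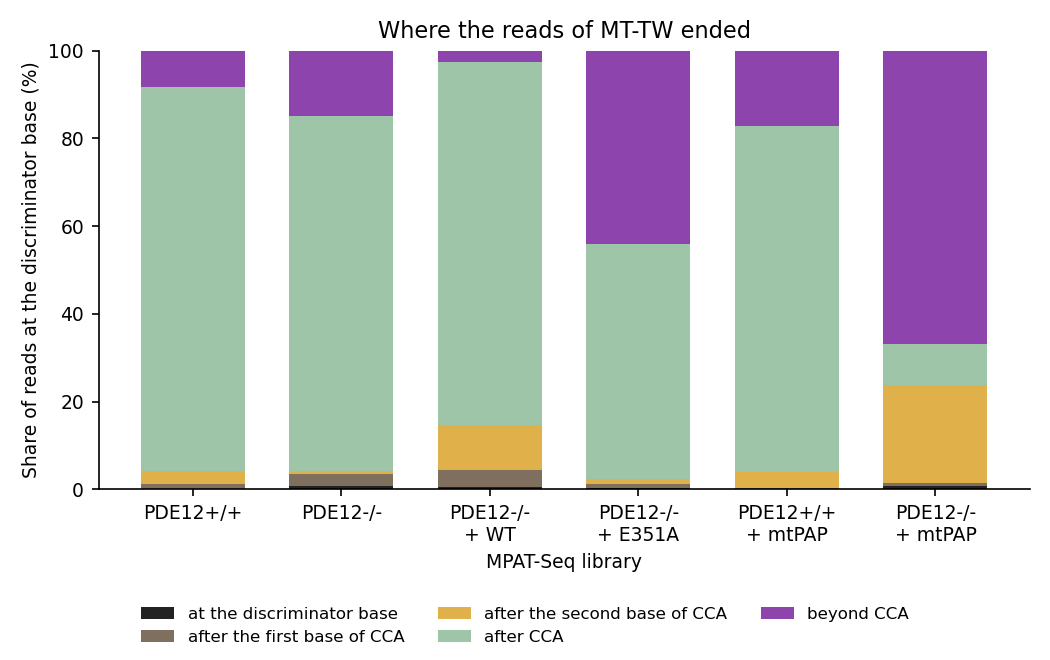
Where the reads of MT-TW ended, as a percentage of the reads at the discriminator base (y axis), in each library (x axis). Stacked colours are ends at the discriminator base, after the first and the second base of CCA, after CCA and beyond CCA. Ends after CCA fill most of every bar except that of PDE12-/- + mtPAP, where they are 9.25%.

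Tail lengths were read to a ceiling. The last position with more than 1% of the reads at +4 was +11, which is 8 bases beyond CCA, and a single read reached +12 in each of the E351A and PDE12-/- + mtPAP libraries. A read counted from the first base of the primer to the discriminator base has 67 bases. The authors added uncalled positions after each mt-tRNA, and Bowtie2's default ceiling is 0.15 uncalled reference bases per base of read. At that ceiling, a read of this length may run to +11 and no further. This count assumes that the primer bases stayed in the mapped reads, whereas the paper states that MPAT primers were removed before mapping. Whether these bases stayed was not tested. By this count, the last position with more than 1% of the reads at +4 equalled the one allowed in 22 of 22 mt-tRNAs. In some of them, MT-TW included, a last position with any read lay past it. The tables of MT-TW held almost no reads past +11, so lengths over 8 bases could not be read from them. Whether reads with longer tails are missing from the counts was not tested.

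Below that ceiling the libraries differed in how many extended reads had only 1 base beyond CCA. Of the extended reads 25.7% ended after 1 base in PDE12+/+ (120 of 467), 19.5% in PDE12-/- (51 of 261), 8.88% after expression of wild-type PDE12 (15 of 169), 5.34% after that of E351A (399 of 7478), 4.32% in PDE12+/+ + mtPAP (7 of 162) and 0.480% in PDE12-/- + mtPAP (10 of 2082). The median length was 6 bases in PDE12+/+, 5 with wild-type PDE12 and 7 in the other 4 libraries. At least 5 bases were reached by 98.3% of the extended reads in PDE12-/- + mtPAP (97.6 to 98.7), 87.7% in PDE12+/+ + mtPAP, 85.1% with E351A, 68.2% in PDE12-/-, 65.7% in PDE12+/+ and 56.2% with wild-type PDE12 (48.7 to 63.5). Tails of 1 base were thus most frequent in PDE12+/+ and PDE12-/-, and rarest in PDE12-/- + mtPAP.

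The share that reached 8 bases was 47.2% in PDE12-/- + mtPAP (45.0 to 49.3), 41.9% with E351A (40.8 to 43.0), 39.1% in PDE12-/- (33.4 to 45.1) and 33.3% in PDE12+/+ + mtPAP (26.5 to 40.9). It was lower in PDE12+/+, 24.2% (20.5 to 28.3), and with wild-type PDE12, 19.5% (14.3 to 26.2), whose intervals overlap each other; that of PDE12+/+ also overlaps that of PDE12+/+ + mtPAP. Between PDE12+/+ and PDE12-/- the intervals lay apart, so in MT-TW the knockout library had both a higher percentage extended and, among the extended reads, a larger share that reached 8 bases. The order of the libraries depends on the counting. When only A was counted at each position, the share was 53.4% in PDE12-/- (46.3 to 60.3), 50.8% with E351A and 48.8% in PDE12-/- + mtPAP. By that count it was 37.8% in PDE12+/+ + mtPAP, 28.1% in PDE12+/+ and 21.6% with wild-type PDE12.

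**Figure D3:**
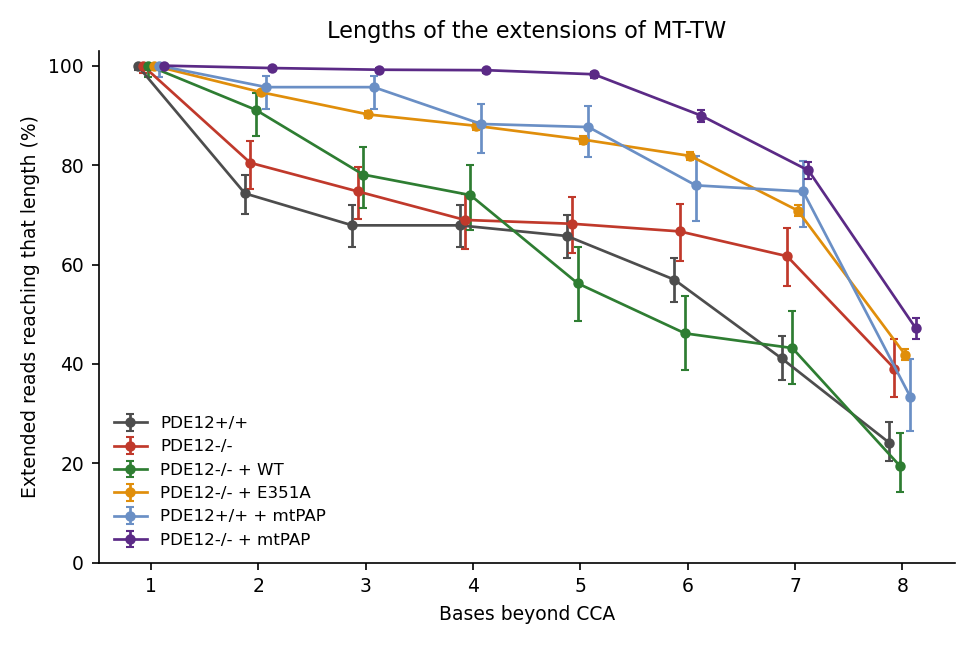
Percentage of extended MT-TW reads (y axis) that reached each number of bases beyond CCA (x axis), with 95% Wilson intervals; colours are the 6 libraries. The PDE12-/- + mtPAP line stays at 98.3% or above up to 5 bases, while PDE12+/+ drops to 74.3% at the second base. All lines end at 8 bases, the ceiling of the lengths read.

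Adenine was the usual base beyond CCA in all 6 libraries. Over +4 and later, A was 95.5% of the bases read in PDE12+/+ (2326 bases), 87.0% in PDE12-/- (1461), 96.0% in the library with wild-type PDE12 (859), 96.0% in that with E351A (48793), 96.3% in PDE12+/+ + mtPAP (1055) and 98.6% in PDE12-/- + mtPAP (14827). Most of the remainder was C, between 1.34% in PDE12-/- + mtPAP and 10.7% in PDE12-/-. Bases of 1 read are not independent, so no interval is given for these pooled shares.

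C was found at the first base beyond CCA in all 6 libraries. At +4 it made up 12.8% of the bases in PDE12+/+ (60 of 467 reads), 26.8% in PDE12-/- (70 of 261, interval 21.8 to 32.5), 9.47% after expression of wild-type PDE12 (16 of 169), 17.3% after that of E351A (1290 of 7478), 11.7% in PDE12+/+ + mtPAP (19 of 162) and 3.55% in PDE12-/- + mtPAP (74 of 2082, interval 2.84 to 4.44). The PDE12-/- share lay above, and the PDE12-/- + mtPAP share below, the intervals of the other libraries. MT-TW ranked 6, 2, 6, 3, 3 and 4 among the 22 in that order of libraries, behind MT-TH in 5 of them and behind MT-TD (mt-tRNA Asp) in PDE12+/+.

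Only some libraries carried C further into the tail. At +5 it was 20% in PDE12-/- (42 of 210 reads), 12.9% in PDE12+/+ + mtPAP (20 of 155), 3.39% with E351A and 1.74% in PDE12-/- + mtPAP. There were 0 of 347 such reads in PDE12+/+ (95% Wilson interval up to 1.09%) and 0 of 154 with wild-type PDE12 (up to 2.43%). Since the tables count each position apart, only an upper limit can be set on ends with C, C and A after CCA, a second copy of the triplet: 16.1% of the extended reads in PDE12-/-, 11.7% in PDE12+/+ + mtPAP, 3.21% with E351A, and 1.73% in PDE12-/- + mtPAP. None was counted in PDE12+/+ or with wild-type PDE12, which had no C at +5. In PDE12-/- C was also found at +7, in 30 of 180 reads (16.7%, interval 11.9 to 22.8), and in 10 of 174 reads at +9 (5.75%). At +8 it was found in 0 of 178 reads of that library (interval up to 2.11%). No other library had more than 2.04% C at +7.

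**Figure D4:**
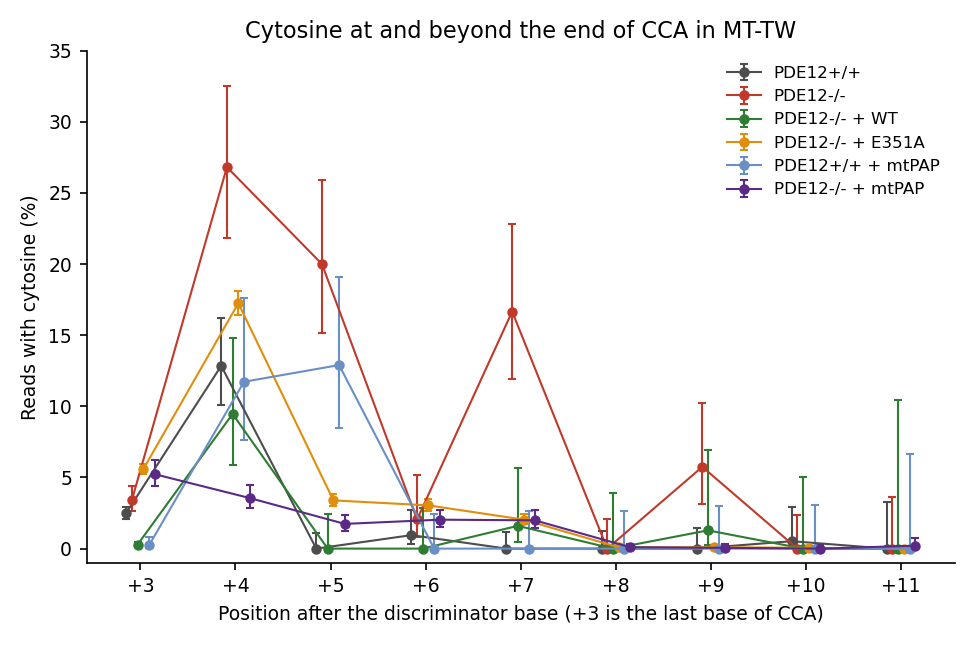
Percentage of MT-TW reads with cytosine (y axis) at each position from +3, the last base of CCA, to +11 (x axis), with 95% Wilson intervals; colours are the 6 libraries. PDE12-/- has the highest share at +4 (26.8%), +5 (20%) and +7 (16.7%), and positions from +8 on are near 0 in most libraries.

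The genome after MT-TW also has a C at +4 and at +7, so reads of unprocessed precursor would add to both. Such reads would carry the genome's T at +1, which 25 of 5723 reads had in PDE12+/+ and 5 of 1731 in PDE12-/-, and 0.0647% to 0.563% over the 6 libraries. They would carry the genome's G at +6, which 4 reads had in PDE12+/+, 4 in PDE12-/- and 0 in each mtPAP library. In PDE12-/- C was read 70 times at +4 and 30 times at +7. The part of precursor in these reads was not tested. Reads with the genome's A at +2 and +3 cannot be told apart from reads with an A in the tail or in CCA.

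C in place of the A of CCA, at +3, was rarer. It was 2.50% in PDE12+/+ (137 of 5489 reads), 3.40% in PDE12-/-, 5.57% with E351A and 5.23% in PDE12-/- + mtPAP, but 0.277% with wild-type PDE12 (15 of 5421) and 0.219% in PDE12+/+ + mtPAP (2 of 913). The 2 reads of the latter are below the floor of 3 reads used here. MT-TW ranked between 3 and 7 of the 22 for this share. So the library with wild-type PDE12 had the least extension, the most short ends among libraries without mtPAP, and a lower share of C at +3 than all libraries but PDE12+/+ + mtPAP.

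The discriminator base of MT-TW was G in nearly all reads of all 6 libraries. The table expects G there for 4 of the 22 mt-tRNAs, A for 16, C for 1 and T for 1, and the last base of the reference gene is the expected one in 22 of 22. The G share of MT-TW was 98.6% in PDE12+/+, 96.6% in PDE12-/-, 96.4% in the wild-type PDE12 library, 97.7% in the E351A library, 98.9% in PDE12+/+ + mtPAP and 98.7% in PDE12-/- + mtPAP. Most other reads had A, from 0.706% in PDE12-/- + mtPAP to 3.58% with wild-type PDE12 (3.15 to 4.06). The share with A was thus not higher where extension was highest.

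The other mt-tRNAs with an expected G had a wider range over the 6 libraries, though not a lower share in each. MT-TS1 had G in 50.8% of its reads in PDE12+/+, 36.8% with E351A and 8.06% in PDE12-/- + mtPAP, where it had 62 reads, the rest of them mostly A. MT-TQ had 86.7%, 69.0% and 13.2% in the same libraries, the last from 68 reads. MT-TN (mt-tRNA Asn), the most deeply read of the 4, ranged from 87.0% in PDE12+/+ to 98.9% in PDE12-/- + mtPAP. With wild-type PDE12 MT-TW had the lowest share of the 4, 96.4% against 96.6% for MT-TN, 98.3% for MT-TS1 and 99.3% for MT-TQ, and in PDE12-/- its 96.6% lay below MT-TN (98.0%) and MT-TQ (97.5%). The lowest share of MT-TW, 96.4%, was still higher than the lowest share of each of the other 3.

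**Figure D5:**
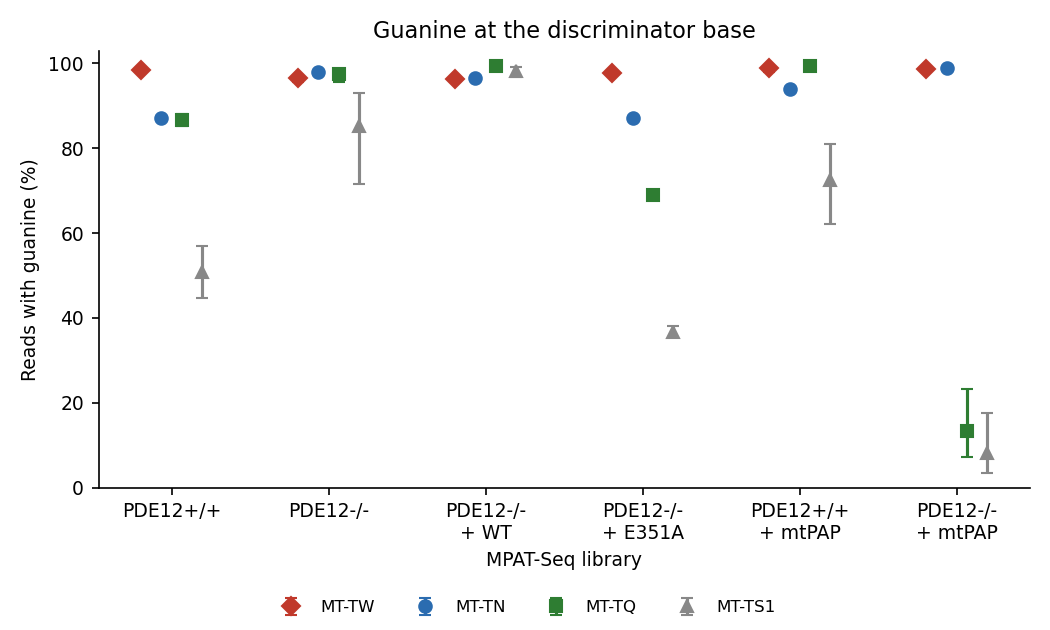
Percentage of reads with guanine at the discriminator base (y axis) for the 4 mt-tRNAs whose table expects it, in each library (x axis), with 95% Wilson intervals. MT-TW (red diamonds) lies between 96.4% and 98.9% throughout, while MT-TQ and MT-TS1 lie at 13.2% and 8.06% in PDE12-/- + mtPAP.

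Over the 6 libraries the percentage extended was most like that of MT-TW in MT-TQ, MT-TC (mt-tRNA Cys) and MT-TD, by the mean absolute difference. That difference was 7.26 points for MT-TQ, 8.81 for MT-TC and 9.16 for MT-TD, and it was largest for MT-TS2 (mt-tRNA Ser), 48.7 points. None of the 3 matched in every library. MT-TQ was 0.253% extended in PDE12+/+ + mtPAP, 17.5 points below MT-TW. That value comes from 2 of 791 reads, below the floor of 3 reads used here. MT-TC was 59.2% in PDE12-/- + mtPAP, 28.7 points below MT-TW, and MT-TD was 50.5% in PDE12-/-, 34.9 points above. MT-TQ also differs in depth, with 62 reads at +3 in PDE12-/- + mtPAP against 2370 for MT-TW.

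RNA-seq of mitochondrial RNA from PDE12+/+ and PDE12-/- cells held few sense counts of MT-TW. They were 1, 1 and 2 in the PDE12+/+ samples and 1, 1 and 3 in the PDE12-/- samples, from totals of 36338 to 104708 counts per sample over 35 mitochondrial genes. All are at or below 3 counts, so no fold change is given and a change in its level was not detectable at this depth. MT-TW ranked 3 from the lowest of the 22 mt-tRNA genes in mean sense count. The counts depend on the total of each sample, so the amount of MT-TW RNA per cell was not measured.

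Antisense counts at MT-TW were higher than sense counts in 6 of 6 samples. They numbered 7, 20 and 15 in PDE12+/+ and 16, 10 and 8 in PDE12-/-. As CPM with TMM factors they were 176, 246 and 191 in PDE12+/+ and 174, 143 and 80.7 in PDE12-/-. The nearest samples of the genotypes almost touched, and the order of the samples depends on this scaling. The log2 fold change was −0.66 (SE 0.50, edgeR quasi-likelihood test, adjusted p = 0.784). With library totals in place of TMM it was −0.35, a scaling that moved the median log2 fold change over the features by 0.27. Of the 14 mt-tRNA genes on the + strand, 9 had more antisense than sense counts over the 6 samples, MT-TW among them.

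None of the 70 features, sense and antisense of the 35 genes, passed an adjusted p of 0.05 in edgeR (0 of 70, 0.00%) or in DESeq2 (0). In edgeR 5 had an unadjusted p under 0.05. In simulated data the edgeR fit called 43% of the features changed 2-fold and 100% of those changed 4-fold. Those changes were set only in features with more counts than MT-TW, so neither share applies to MT-TW. Changes of 2-fold could be missed even in such features, and the size of change that could be missed for MT-TW was not simulated. With the replicate number as a block, 4 features passed, the sense counts of MT-ND2, MT-CO1 and MT-CO2 and the antisense counts of MT-TN, and MT-TW antisense was not one of them (log2 fold change −0.69, edgeR adjusted p = 0.368, against 0.368 to 1 over all alternatives).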

How the data were processed

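RNA of HEK293T cells was read by MPAT-Seq (6 libraries) and, from mitochondria, by RNA-seq (3 samples per genotype, whose separate cultures the labels do not state, so p-values measure the spread between these samples). The authors trimmed primers with cutadapt, mapped MPAT-Seq reads with Bowtie2 to GRCh38 extended by 30 uncalled positions at mt-tRNA ends, and deposited read counts per position and base, neither normalized nor filtered as far as the tables show. For RNA-seq the authors used Trim Galore, Bowtie2 and SAMtools, removed mt-rRNA reads, parted the strands and deposited raw counts per gene and strand. Tool versions are not given in the sources used here.

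The percentage extended is the reads at +4 divided by those at +3. Wilson and Newcombe intervals (95%, SciPy 1.17.1, Python 3.11.15) cover counting error only, and 3 reads were taken as the floor. Depth per library is given with the results. In 4 tables other than that of MT-TW, misnumbered or misfilled positions were corrected (3 of MT-TY shifted by 1 base, 1 of MT-TQ refilled), and 2 misnamed mt-tRNAs were renamed. All 6 tables of MT-TW had bases summing to their totals. The 70 RNA-seq features entered 1 edgeR model (version 4.0.16, R 4.3.3; TMM, common dispersion, genotype alone, quasi-likelihood test, Benjamini-Hochberg adjusted p-value threshold 0.05), with DESeq2 1.42.0 as an alternative, and the fit was tested on simulated data. MT-TW is on the + strand, so forward counts are sense. Strands and sequences come from GENCODE and GRCh38. Deviations of same-numbered samples of the genotypes correlated at 0.61, 0.25 and 0.34 over 37 features. The same number was the best match for 2 of the 3 PDE12+/+ samples. The labels do not state a pairing, so it remains uncertain, and a second model took the number as its block.

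MT-TW, the lists and the rule for naming others (the 3 mt-tRNAs closest in percentage extended, those with an expected G, those at an end of the 22 in a measure) were chosen with earlier results of these data known. MT-TE and the features under the block were named after their values were seen. PDE12 itself was not analysed here.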

Additional observations from a re-analysis of the deposited data

How the results depend on the processing

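The 8 differences in percentage extended were recomputed under 6 other ways of counting, and all 48 values kept their sign, with intervals that leave out 0; 27 moved by less than the interval. The others follow in points, and their cause was not tested beyond what each way of counting takes out. With the reads at the discriminator base or at +2 as denominator, PDE12-/- + mtPAP minus PDE12-/- was 51.9 and 52.3, and minus PDE12+/+ + mtPAP 49.8 and 50.7. With only A at +4, PDE12-/- minus PDE12+/+ was 4.08, PDE12-/- + WT minus PDE12-/- −8.58 and minus PDE12+/+ −4.50, and PDE12-/- + E351A minus PDE12-/- 25.9 and minus PDE12-/- + WT 34.5. With +5 in place of +4, the wild-type library minus PDE12-/- was −9.70 and minus PDE12+/+ −3.48, the E351A library minus the wild-type one 40.0, and PDE12-/- + mtPAP minus PDE12-/- 74.9. With reads of C at +3 taken out and as many as possible counted as extended, the same 4 were −9.76, −3.32, 39.2 and 74.6. With as few as possible so counted, E351A minus PDE12-/- was 31.8 and minus wild type 44.8, and PDE12-/- + mtPAP minus PDE12-/- 76.6 and minus PDE12+/+ + mtPAP 74.9. By the labels' genotypes, mtPAP in PDE12+/+ gave 79.3, in PDE12-/- 2.16, and PDE12-/- minus PDE12+/+ with mtPAP was −70.1.

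In RNA-seq the count of features past the threshold was 4 with the replicate block, 2 with library totals in place of TMM (the sense counts of MT-ND2 and MT-ATP6, named after their values were seen), and 0 to 0 when each sample was left out in turn; the cause was not tested. MT-TW antisense did not pass the threshold under any alternative run. Its log2 fold change lay between −0.93 (without PDE12-/- replicate 1) and −0.38 (without PDE12-/- replicate 3) when each sample was left out in turn, and was −0.35 with library totals and −0.69 in the replicate block, which changed no other call of MT-TW.

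Each condition had 1 MPAT-Seq library, so the spread between cultures is unknown. PDE12+/+ + mtPAP and PDE12-/- held only 162 and 261 extended reads of MT-TW. Tails beyond 8 bases and combinations of bases within 1 read cannot be read from these tables. In PDE12-/- against PDE12+/+ alone, the knockout of 1 clone cannot be told apart from other differences of that clone. Wild-type PDE12 and E351A were both expressed in PDE12-/- cells, where extension of MT-TW was 3.12% and 45.2%. What other differences of the clone add to the knockout value was not tested.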

Other observations

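The step from 1 base beyond CCA to a second was taken least often in PDE12+/+ and most often in PDE12-/- + mtPAP. Of the MT-TW reads with 1 base beyond CCA, 74.3% went on to a second base in PDE12+/+ (95% Wilson interval 70.2 to 78.1), 80.5% in PDE12-/-, 91.1% in the wild-type PDE12 library, 94.7% in the E351A library, 95.7% in PDE12+/+ + mtPAP and 99.5% in PDE12-/- + mtPAP (99.1 to 99.7). At the last step before the ceiling of the lengths read, from 7 bases to 8, the shares were 58.9% in PDE12+/+, 63.4% in PDE12-/-, 45.2% after expression of wild-type PDE12 (34.3 to 56.6), 59.1% after that of E351A, 44.6% in PDE12+/+ + mtPAP and 59.8% in PDE12-/- + mtPAP.

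G and T made up a larger share of the tail bases in the libraries of PDE12+/+, PDE12-/- and PDE12-/- + WT than in the other 3. Over +4 and later, G and T together made up 40 of 2326 bases in PDE12+/+, 34 of 1461 in PDE12-/- and 15 of 859 with wild-type PDE12, against 67 of 48793 with E351A, 0 of 1055 in PDE12+/+ + mtPAP and 4 of 14827 in PDE12-/- + mtPAP.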
